A study of Mus musculus with 9 samples.

Results

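Hlf, Tef and Dbp encode the proline and acidic amino acid-rich (PAR) basic leucine zipper factors, and Nfil3 encodes a basic leucine zipper repressor that competes with them. These 4 genes were chosen by symbol from the 55488 genes listed in each of 9 RNA sequencing libraries of mouse fetal liver blood cells. Each gene had 1 row in every library. Hlf was at 139.5 to 194 TPM (a library-scaled, length-corrected transcript level) in 6 of the 9 libraries and at 0.631 to 2.19 TPM in the other 3. Tef, Dbp and Nfil3 stayed under 20 TPM in all 9.

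The libraries came from sorted cells of C57BL/6 fetal livers at embryonic day 14.5, with 3 libraries in each of 3 groups and 100 cells in each lysate. The Evi1 HSC group held c-Kit+Sca-1+Lin- cells that were also CD150+, CD48- and GFP+, a haematopoietic stem cell gate with a reporter, of the genotype Tie2-Cre::ROSA-Evi1. The WT HSC group held c-Kit+Sca-1+Lin- cells that were CD150+ and CD48-, and the WT KL group held c-Kit+Sca-1-Lin- cells, a gate of committed progenitors, both of the genotype ROSA-Evi1. All 3 groups therefore carried the ROSA-Evi1 allele, and the WT groups lacked the Cre. The Tie2 promoter drives Cre in endothelium and in blood cells, so the genotype does not by itself restrict Evi1 to stem cells. Evi1 is a zinc finger transcription factor of the Mecom locus that stem cells use. No label ties the replicates to separate embryos, so p-values reflect the spread among these libraries alone, which may be technical. The sources used here do not give the hour of collection, which matters for clock genes.

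PAR basic leucine zipper factors bind DNA as dimers at an element called the D-box, and Nfil3 occupies the same element and lowers transcription from it. In liver and other tissues Dbp, Tef and Hlf are outputs of the circadian clock, driven by the Clock and Arntl dimer at E-boxes, and they pass its rhythm on to genes of metabolism. Hlf is also known as a gene of haematopoietic stem cells that is switched off as progenitors commit, and human HLF is joined to TCF3 in a fusion found in acute lymphoblastic leukaemia.

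The genes lie on 4 chromosomes (GRCm38, GENCODE M21). Hlf spans chr11:90336536-90390895 on the minus strand with 6681 exonic bases. Tef spans chr15:81802421-81826863 on the plus strand with 7867 exonic bases, and Dbp spans chr7:45705088-45710203 on the plus strand with 2993. Nfil3 spans chr13:52967209-52981073 on the minus strand with 2026. All 4 are protein-coding. Dbp shares 539 exonic bases with Sphk2 on the opposite strand, and Tef shares 193 with Gm17597 on the opposite strand. The sources used here do not say whether counting used strand, so reads of these shared bases cannot be assigned, and the values of Dbp and Tef are uncertain to that extent. Sphk2 itself was at 5.86 to 8.08 TPM in all 9 libraries, and Gm17597 averaged 0.334 TPM in Evi1 HSC, 0.187 TPM in WT HSC and 0.130 TPM in WT KL.

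The sequence before the start of Hlf is shown because Hlf was the member with the widest range between libraries. It is the 250 bases upstream of the RefSeq start at chr11:90390918-90391167 (GRCm38.p6, minus strand), with its CpG dinucleotides in capitals.
Hlf upstream: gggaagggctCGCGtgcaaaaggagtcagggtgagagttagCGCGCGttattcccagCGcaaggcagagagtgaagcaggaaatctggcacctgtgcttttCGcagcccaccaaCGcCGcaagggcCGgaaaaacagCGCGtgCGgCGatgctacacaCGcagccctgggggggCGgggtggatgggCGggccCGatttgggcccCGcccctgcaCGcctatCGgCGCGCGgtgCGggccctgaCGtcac
It holds 26 CpG dinucleotides and 67.2% G and C, against medians of 6 and 52.4% over the 32851 upstream windows of the RefSeq table. The same stretch held 43 CpG dinucleotides before Nfil3 and 16 before Dbp, and 8 and 20 before the 2 listed starts of Tef.

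TTACGTAA and TTATGTAA, forms of the D-box that PAR factors and Nfil3 bind, and CACGTG, the E-box word that Clock and Arntl bind, were searched on both strands of windows from 250 bases before to 50 bases after each RefSeq start. TTACGTAA was in 0.119% of the 32851 windows, TTATGTAA in 0.938% and CACGTG in 7.15%. Neither D-box word was in a window of Hlf, Tef, Dbp or Nfil3. CACGTG was in both windows of Tef, at positions -127 and -138 relative to their starts, and in no window of the other 3 genes. The Tef matches are shown with the word in capitals, at chr15:81802534-81802563 and chr15:81811264-81811293 on the plus strand.
Tef first start: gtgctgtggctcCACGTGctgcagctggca
Tef second start: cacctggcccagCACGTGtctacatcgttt
Among the clock, C/EBP, reported target and stem cell genes listed for comparison, Per3, a period gene of the clock, was the single one with a D-box word, and it held TTATGTAA at positions -205 and -158 relative to its start. These matches, at chr4:151044851-151044882 and chr4:151044804-151044835 on the minus strand, are shown with the word in capitals.
Per3 distal match: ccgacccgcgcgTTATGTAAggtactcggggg
Per3 proximal match: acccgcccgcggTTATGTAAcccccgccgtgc
No match of one word overlapped a match of another in the windows shown. A match describes the letters of the window and is not evidence of a bound site, and the lack of one says nothing of elements farther away.

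Of the 9 libraries, 2 went against their labels when read by Mecom, by Ly6a, the gene of Sca-1, and by Mpo, the myeloperoxidase gene of myeloid progenitors. The sample labelled WT HSC replicate 3 had 0.0167 TPM of Mecom, 0 of Ly6a and 579 of Mpo, and the sample labelled WT KL replicate 1 had 90.8 TPM of Mecom, 19.7 of Ly6a and 13.6 of Mpo. Mecom was at 176 to 210 TPM in Evi1 HSC, at 161 and 114 TPM in the other 2 WT HSC libraries, and at 0.0107 and 0.325 TPM in the other 2 WT KL libraries. The sample labelled WT HSC replicate 3 correlated at a mean r of 0.972 across genes with WT KL replicates 2 and 3 and at 0.832 with WT HSC replicates 1 and 2. The sample labelled WT KL replicate 1 correlated at 0.827 with WT KL replicates 2 and 3 and at 0.955 with WT HSC replicates 1 and 2. Results are therefore given over all 9 libraries as labelled and over the 7 without these 2, which leaves 2 WT HSC and 2 WT KL libraries. Genes at 1 TPM or more numbered 18258 to 18806 in 6 libraries and 15422 to 15819 in the sample labelled WT HSC replicate 3 and in WT KL replicates 2 and 3. TPM keeps no read depth, so the depth is unknown and no counting interval can be given.

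Evi1 HSC had 194, 139.5 and 181 TPM of Hlf. WT HSC had 153 and 189 TPM, with 0.631 TPM in the sample labelled replicate 3. WT KL had 1.83 and 2.19 TPM, with 164 TPM in the sample labelled replicate 1. The 3 Evi1 HSC libraries lay among the high values, and the low and high values of Hlf split the 9 libraries in the same way as Mecom did. In the 6 high libraries Hlf stood above 98.1 to 98.8% of the genes at 1 TPM or more, at ranks 235 to 341 of all listed genes. In the sample labelled WT HSC replicate 3 and in WT KL replicates 2 and 3 its rank was 12727 to 16833.

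Over all 9 libraries as labelled, Hlf averaged 172 ± 28.5 TPM in Evi1 HSC, 114 ± 99.9 TPM in WT HSC and 56.0 ± 93.5 TPM in WT KL (SD, n = 3 each), and all 3 ranges overlapped. Over 7 libraries the WT HSC mean was 171 ± 25.0 TPM and the WT KL mean 2.01 ± 0.258 TPM (SD, n = 2 each). The Evi1 HSC mean was then 1.003 times the WT HSC mean and 85.4 times the WT KL mean, and the WT HSC mean was 85.1 times the WT KL mean. The Evi1 HSC and WT HSC ranges overlapped. The lowest Evi1 HSC library was 63.7 times the highest of the 2 WT KL libraries, and the lowest of the 2 WT HSC libraries was 69.9 times it. Libraries are bulk samples, so fewer cells that express a gene and less of its RNA per cell cannot be told apart.

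Tef encodes the thyrotroph embryonic factor, a PAR member first found in the pituitary. Evi1 HSC had 6.24, 11.2 and 6.50 TPM of Tef. WT HSC had 7.59 and 17.5 TPM, with 3.99 TPM in the sample labelled replicate 3, and WT KL had 11.5 and 3.70 TPM, with 7.91 TPM in the sample labelled replicate 1. The ranges of the 3 groups overlapped over 9 and over 7 libraries, and the highest value in each group was that of replicate 2. Over 7 libraries the means were 7.98 ± 2.80 TPM in Evi1 HSC (SD, n = 3), 12.5 ± 6.97 TPM in WT HSC and 7.58 ± 5.50 TPM in WT KL (SD, n = 2 each).

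Dbp encodes a D-box binding protein, another PAR member. Evi1 HSC had 3.06, 0.454 and 4.28 TPM of Dbp. WT HSC had 3.32 and 3.23 TPM, with 0.650 TPM in the sample labelled replicate 3, and WT KL had 0.321 and 0.208 TPM, with 3.26 TPM in the sample labelled replicate 1. Evi1 HSC replicate 2 was low beside the other 5 libraries in which Hlf was high, at a level nearer to that of WT KL replicates 2 and 3. Over 7 libraries Dbp averaged 2.60 ± 1.95 TPM in Evi1 HSC (SD, n = 3), 3.27 ± 0.0664 TPM in WT HSC and 0.264 ± 0.0799 TPM in WT KL (SD, n = 2 each). These Evi1 HSC and WT HSC means were 9.83 and 12.4 times the WT KL mean, and neither range overlapped that of WT KL. The share of all genes with such gaps between so few libraries was not counted. Dbp was under 1 TPM in 4 libraries and passed the filter on low values only through 5 of the libraries in which Hlf was high, so a difference from the low libraries was built into its being tested.

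Nfil3, the competing repressor, was the lowest of the 4 genes in 6 of the 9 libraries. Evi1 HSC had 1.05, 1.70 and 1.42 TPM of Nfil3. WT HSC had 1.66 and 2.22 TPM, with 0.591 TPM in the sample labelled replicate 3, and WT KL had 1.16 and 0.591 TPM, with 1.76 TPM in the sample labelled replicate 1. Over 7 libraries the means were 1.39 ± 0.327 TPM in Evi1 HSC (SD, n = 3), 1.94 ± 0.393 TPM in WT HSC and 0.877 ± 0.404 TPM in WT KL (SD, n = 2 each). The WT HSC and WT KL ranges did not overlap, and Evi1 HSC overlapped both. The share of all genes with such a gap between 2 and 2 libraries was not counted, so nothing is read from it. All these Nfil3 values lie near the filter of 1 TPM.

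**Figure D1:**
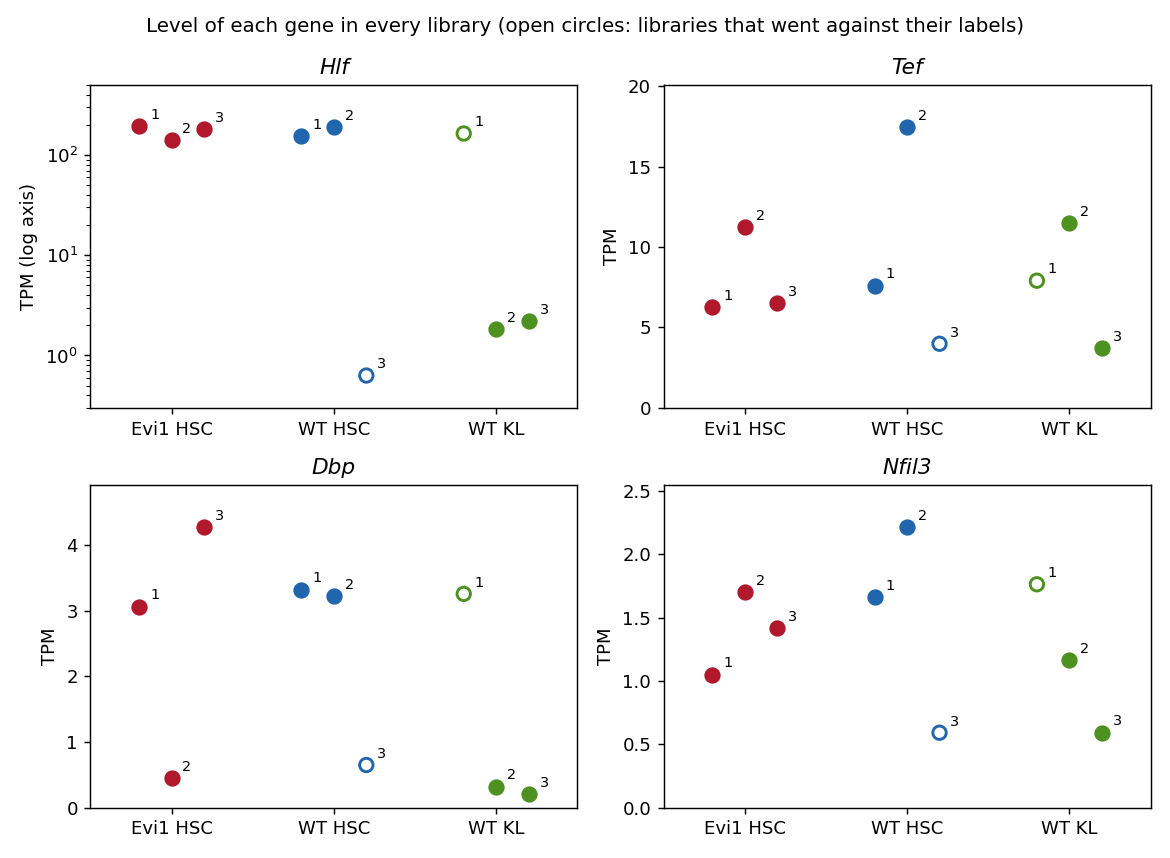
TPM of Hlf (log axis), Tef, Dbp and Nfil3 in each library, with Evi1 HSC, WT HSC and WT KL from left to right; open circles are the sample labelled WT HSC replicate 3 and the sample labelled WT KL replicate 1. Hlf lies at 139.5 to 194 TPM in 6 libraries and at 0.631 to 2.19 TPM in 3, while the Tef values of the groups overlap.

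The order of the 4 genes differed between the libraries. TPM is scaled by gene length, so levels of different genes can be set side by side. Hlf was highest, followed by Tef, Dbp and Nfil3, in Evi1 HSC replicates 1 and 3, WT HSC replicates 1 and 2 and the sample labelled WT KL replicate 1. Evi1 HSC replicate 2 had the same order with Dbp and Nfil3 exchanged. Tef was highest in the sample labelled WT HSC replicate 3 and in WT KL replicates 2 and 3.

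The summed level of the 3 PAR factors followed Hlf. It was 204, 151 and 191 TPM in Evi1 HSC, 164 and 209 TPM in WT HSC with 5.27 TPM in the sample labelled replicate 3, and 13.6 and 6.10 TPM in WT KL with 175 TPM in the sample labelled replicate 1. Hlf made up 95.4, 92.3 and 94.4% of that sum in Evi1 HSC. Its share was 93.4 and 90.1% in WT HSC replicates 1 and 2 and 11.98% in the sample labelled replicate 3, against 13.4 and 36.0% in WT KL replicates 2 and 3 and 93.6% in the sample labelled replicate 1. Where Hlf was low, Tef made up 60.6 to 84.2% of the sum.

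Without Hlf, the ranges of the groups overlapped. The summed level of Tef and Dbp was 9.31, 11.7 and 10.8 TPM in Evi1 HSC, 10.9 and 20.7 TPM in WT HSC replicates 1 and 2, and 11.8 and 3.91 TPM in WT KL replicates 2 and 3. The ratio of the 3 PAR factors to Nfil3 was 194, 88.9 and 135 in Evi1 HSC, 98.9 and 94.4 in WT HSC replicates 1 and 2, and 11.7 and 10.3 in WT KL replicates 2 and 3. It was 8.91 in the sample labelled WT HSC replicate 3 and 99.3 in the sample labelled WT KL replicate 1. These are ratios of RNA levels, with Nfil3 near 1 TPM in the denominator.

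**Figure D2:**
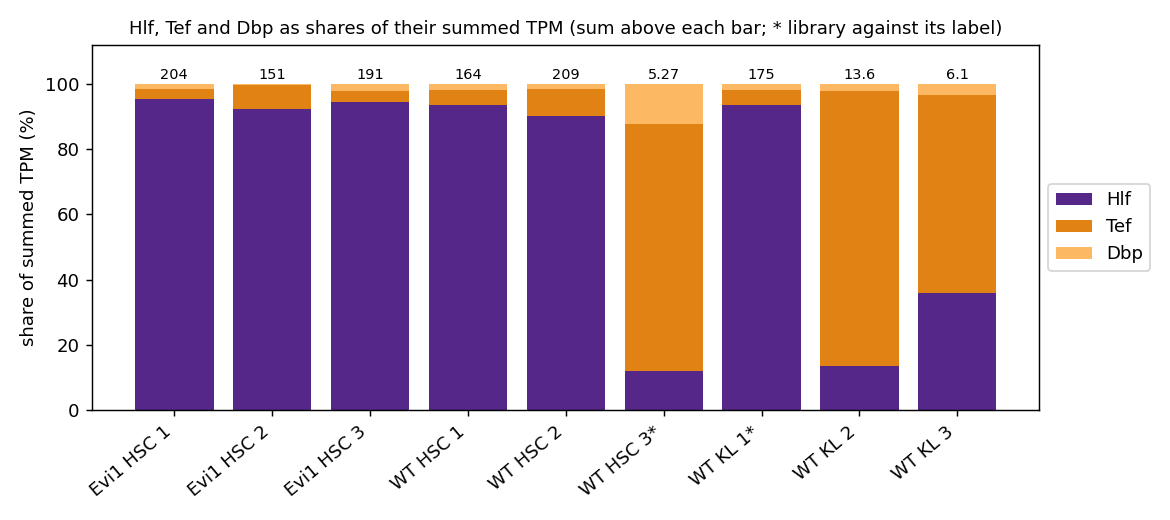
Shares (%) of Hlf, Tef and Dbp in their summed TPM in each library, ordered Evi1 HSC, WT HSC and WT KL, with the sum above each bar and a star on the 2 libraries that went against their labels. Hlf takes 90.1 to 95.4% in 6 libraries and 11.98 to 36.0% in the other 3, where Tef takes 60.6 to 84.2%.

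To ask whether Evi1 was accompanied by another level of these factors within the stem cell gate, Evi1 HSC was compared with WT HSC. Differences are given as log2 fold changes of TPM + 1, which understate the change of low genes, with a gene called at a Benjamini-Hochberg adjusted p under 0.05 in limma's fit over all tested genes. Over 9 libraries 0 of the 4 genes were called and 0 had an unadjusted p under 0.05, where 0.00514% of the 19461 tested genes were called. The Hlf difference was 2.24 with a standard error (SE) of 2.03 and a 95% interval of -2.40 to 6.87 (limma, adjusted p = 0.791). That interval contains both no difference and a difference of many fold, and the sample labelled WT HSC replicate 3 stood far below the other 2. Tef differed by -0.08, Dbp by 0.02 and Nfil3 by -0.01, with adjusted p of 0.960 to 0.993 in limma.

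Over 7 libraries again 0 of the 4 were called and 0 had an unadjusted p under 0.05, against 0.206% of 18943 tested genes called. The Hlf difference between Evi1 HSC and WT HSC was -0.00 (SE 0.18), with a 95% interval of -0.43 to 0.42 and an adjusted p of 0.9997 in limma. Tef differed by -0.53 (95% interval -1.73 to 0.67, limma adjusted p = 0.843). Dbp differed by -0.44, with an interval of -1.66 to 0.77 and a limma adjusted p of 0.884. Nfil3 differed by -0.30 with an interval of -0.86 to 0.25 and a limma adjusted p of 0.801. The interval of Hlf was the narrowest of the 4, and those of Tef and Dbp leave room for differences of more than 1 on the log2 scale in the direction of lower Evi1 HSC values. In the same fit Mecom differed by 0.54 (limma adjusted p = 0.531), and RNA of the ROSA-Evi1 allele and of the Mecom locus cannot be told apart in that value.

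The comparison of WT HSC with WT KL asks how the factors differ between the stem cell and progenitor gates without the Cre. It shares the WT KL libraries with the comparison of Evi1 HSC with WT KL, so their values are side by side here and are not independent of each other. Over 9 libraries 0 of 4 genes were called in either, and 0 had an unadjusted p under 0.05, where 0.00514% of genes were called for WT HSC against WT KL and 0.0103% for Evi1 HSC against WT KL. Hlf differed by 3.90 for Evi1 HSC against WT KL (SE 2.03, 95% interval -0.74 to 8.54, limma adjusted p = 0.317) and by 1.67 for WT HSC against WT KL (SE 2.03, limma adjusted p = 0.963). The other 3 genes differed by 0.12 to 0.73 in these comparisons, with limma adjusted p of 0.500 to 0.964.

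Over 7 libraries Hlf was higher in both stem cell groups. The log2 difference was 5.83 (SE 0.18, 95% interval 5.41 to 6.25) for Evi1 HSC against WT KL, with a limma adjusted p of 1.0e-05, and 5.83 (SE 0.20, 95% interval 5.37 to 6.30) for WT HSC against WT KL, with a limma adjusted p of 2.1e-05. By size these rises ranked 11 and 12 of the 18943 tested genes. Hlf is among the genes that move with Mecom, Ly6a and Mpo, by which 2 libraries were left out, so its difference over 7 libraries is not independent of that choice.

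Dbp passed the filter over 7 libraries only through stem cell libraries, so a difference from WT KL was built into its being tested. It was higher in WT HSC than in WT KL over 7 libraries, by 1.76 (SE 0.56, 95% interval 0.43 to 3.09, limma adjusted p = 0.0462). The adjusted p was above 0.05 in 7 of 13 alternatives, among them each removal of 1 of the 4 WT libraries and that of Evi1 HSC replicate 1, with limma adjusted p of 0.0567 to 0.157. For Evi1 HSC against WT KL the Dbp difference was 1.32 (SE 0.51, limma adjusted p = 0.0741), and without Evi1 HSC replicate 2 it was 1.87 with a limma adjusted p of 0.0019. Nfil3 differed by 0.36 for Evi1 HSC against WT KL (limma adjusted p = 0.254) and by 0.66 for WT HSC against WT KL (95% interval 0.05 to 1.27, limma adjusted p = 0.0845). Tef differed by 0.19 for Evi1 HSC against WT KL (95% interval -1.01 to 1.39, limma adjusted p = 0.785) and by 0.72 for WT HSC against WT KL (95% interval -0.60 to 2.03, limma adjusted p = 0.345).

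In counts, 1 of the 4 genes, Hlf, was called higher in Evi1 HSC than in WT KL over 7 libraries, where 45.7% of all tested genes passed, split into 31.9% higher and 13.9% lower. For WT HSC against WT KL the calls were 2 of the 4, Hlf and Dbp, both higher, beside 37.7% of all tested genes, split into 27.3% higher and 10.4% lower. Dbp was under 1 TPM in both of these WT KL libraries, so the filter built in its difference. With 4 members, these counts lay near the shares of all genes, and nothing is read from them about the members as a set. The filter over 7 libraries asked for 1 TPM in 3 libraries, while 2 WT KL libraries remained. A gene reaching 1 TPM in WT KL alone, such as Cebpa, was never tested. One reaching it in the stem cell libraries alone could be. The shares of all genes higher and lower, and their medians, therefore lean towards higher by design.

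**Figure D3:**
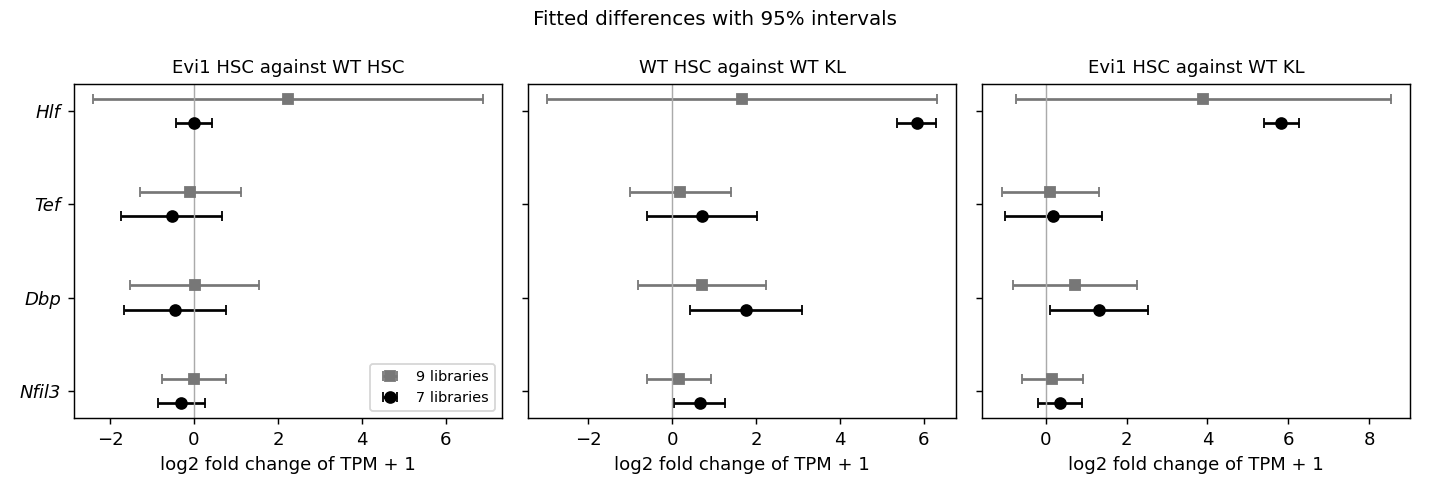
Log2 fold changes of TPM + 1 with 95% intervals for the 4 genes in each comparison, over 9 libraries as labelled and over 7. Over 7 libraries the interval of Hlf against WT KL is 5.41 to 6.25 for Evi1 HSC and 5.37 to 6.30 for WT HSC, and its interval for Evi1 HSC against WT HSC is -0.43 to 0.42.

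Markers of other cells moved with the groups. The 10 stem cell markers summed to 620 to 762 TPM in Evi1 HSC, 633 and 635 TPM in WT HSC replicates 1 and 2, and 12.5 and 12.5 TPM in WT KL replicates 2 and 3, with all 10 at 1 TPM or more in both stem cell groups and 3 to 4 in WT KL. The 10 granulocyte and monocyte markers summed to 34.1 to 39.9 TPM in Evi1 HSC, 26.4 to 40.9 TPM in WT HSC and 638 to 2111 TPM in WT KL over the same libraries. The 10 endothelial markers, many of which stem cells also use, summed to 336 to 741 TPM in Evi1 HSC with 9 to 10 at 1 TPM or more, 255 to 402 TPM in WT HSC with 6 to 10, and 16.5 to 19.5 TPM in WT KL with 3. Erythroid markers also differed, in all 3 comparisons. Gata1, a regulator of red cell and platelet development, measured 4.20, 3.79 and 2.79 TPM in Evi1 HSC, 17.3 and 18.2 TPM in WT HSC and 107 and 118 TPM in WT KL over 7 libraries. Klf1, a red cell regulator, measured 2.51, 0.474 and 0.110 TPM in Evi1 HSC, 23.1 and 21.1 TPM in WT HSC and 147 and 151 TPM in WT KL. Of the 10 erythroid markers, Gata1, Klf1, Epor and Ermap were called lower in Evi1 HSC than in WT HSC, by log2 differences of -2.04, -3.69, -1.36 and -4.35 (limma adjusted p = 0.0174 to 0.0421). Summed, the 10 were at 718 to 1752 TPM in Evi1 HSC, 738 to 878 TPM in WT HSC and 1285 to 1292 TPM in WT KL. Mitochondrially encoded genes took 11.6 to 14.6% of the listed TPM in the 6 libraries in which Hlf was high and 17.4 to 18.1% in the other 3. The part of endothelial or erythroid RNA, or of the mitochondrial share, in the differences of the 4 genes was not tested.

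Hepatocytes, the main liver cells, are another source of PAR factor RNA in the tissue. The 10 hepatocyte markers summed to 10.9 to 15.7 TPM in Evi1 HSC, 9.37 to 23.3 TPM in WT HSC and 2.97 to 4.91 TPM in WT KL over 7 libraries, and to 38.1 TPM in the sample labelled WT KL replicate 1. Trf was the largest single part of each sum. It measured 6.07, 11.2 and 8.35 TPM in Evi1 HSC, 6.03 and 19.2 TPM in WT HSC and 3.94 and 1.25 TPM in WT KL over 7 libraries. Over these libraries Alb, Apoa1 and Ttr overlapped between WT HSC and WT KL, while Afp and Hnf4a were higher in WT HSC. The highest library for Alb, Afp and Ttr, which encode liver secreted proteins, was that same sample, at 10.4 TPM of Alb, 6.86 TPM of Afp and 2.505 TPM of Ttr. Evi1 HSC replicate 1 had 3.18 TPM of Alb and 2.35 TPM of Afp, and the other 7 libraries had under 1 TPM of each. Of the 10 markers, Apob, Fgb and Serpina1a were under 1 TPM in all 9 libraries. The part of hepatocyte RNA in the levels of the 4 genes was not tested.

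By Pearson r on log2(TPM + 1) over the 9 libraries, the genes most like Hlf among the 6871 tested genes averaging 10 TPM or more included Wls (0.999), a carrier of secreted Wnt proteins, Nbea (0.999), Myct1 (0.998) and Lcp2 (0.997), an adaptor of blood cell signalling. These libraries form high and low clusters, and 1277 of the 6871 genes, 18.6%, had an r of at least 0.9 with Hlf, so the likeness describes that split. Over 7 libraries the 5 most like genes were Itih5, Gimap8, Mir99ahg, Gcnt2 and Calcrl, and 0 of 5 were shared with the 9-library set. Only Smarce1, a chromatin remodelling subunit, reached an r of 0.9 with Tef over 9 libraries (0.912), followed by Ric8b (0.897) and Arhgap1 (0.893). Dbp was most like Etnk1 (0.979), Phka2 (0.969) and Foxn3 (0.968), with 45 genes at 0.9 or more. Nfil3 was most like Ist1 (0.975), Ppt2 (0.960) and Zfp655 (0.952), with 36. The points share libraries, and these values carry no test.

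The circadian clock, of which the PAR factors are outputs, was described from 22 genes, of which 13 passed the filter. For Evi1 HSC against WT HSC over 7 libraries 0 of 13 were called in limma, where 0.206% of all tested genes were. An unadjusted p under 0.05 in limma was reached by 2 of 13, against 1600 of 18943 of all. The median log2 difference was -0.00 beside 0.00 for all genes, and nothing is read from these counts. For Evi1 HSC against WT KL 10 of 13 rose, 1 fell and 2 were not called, where 31.9% of all tested genes rose and 13.9% fell, and the median was 1.11 beside 0.28 for all genes. For WT HSC against WT KL 9 of 13 rose and 0 fell, where 27.3% of all rose and 10.4% fell, and the median was 1.20 beside 0.26. Rora was under 1 TPM in both WT KL libraries and passed the filter only through the stem cell libraries, so it had to differ. Without it 9 of 12 rose in Evi1 HSC and 8 of 12 in WT HSC. Over 9 libraries 0 of 13 were called in each comparison, where 0.00514 to 0.0103% of all tested genes were. In limma 1, 5 and 1 had an unadjusted p under 0.05 for Evi1 HSC against WT HSC, Evi1 HSC against WT KL and WT HSC against WT KL. Of all 19461 tested genes, 907, 2956 and 282 had such a p in the same order.

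Among the clock genes, Csnk1e, a kinase of period proteins, rose by 2.46 in Evi1 HSC (limma adjusted p = 0.00013) and by 1.93 in WT HSC (0.00081), both against WT KL. Csnk1e measured 14.1, 10.3 and 14.0 TPM in Evi1 HSC, 8.85 and 8.13 TPM in WT HSC and 1.51 and 1.46 TPM in WT KL over 7 libraries. Per3, the gene with the D-box words above, rose by 1.64 in Evi1 HSC (limma adjusted p = 0.0058) and by 1.86 in WT HSC (0.0064), both against WT KL. Its levels were 14.3, 8.43 and 16.9 TPM in Evi1 HSC, 18.6 and 12.1 TPM in WT HSC and 3.84 and 3.03 TPM in WT KL. Neither stem cell range overlapped that of WT KL, and the share of all genes with such gaps was not counted. Per3 was at 2.61 TPM in the sample labelled WT HSC replicate 3 and 12.9 TPM in the sample labelled WT KL replicate 1.

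Per1, a period gene that responds quickly to stimuli, rose by 1.69 in Evi1 HSC against WT KL (limma adjusted p = 0.0020), at 9.38, 6.45 and 11.9 TPM in Evi1 HSC against 1.9998 and 2.18 TPM in WT KL. Per2, another period gene, measured 6.64, 3.21 and 6.77 TPM in Evi1 HSC, 6.20 and 4.51 TPM in WT HSC and 4.85 and 3.68 TPM in WT KL and was not called. The 1 fall, chosen for naming after its values were seen, was Nr1d1, which encodes the clock repressor REV-ERB alpha. It fell by 0.67 in Evi1 HSC against WT KL (limma adjusted p = 0.0219), at 1.32, 1.73 and 1.62 TPM in Evi1 HSC, 2.86 and 3.27 TPM in WT HSC and 3.23 and 2.89 TPM in WT KL.

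Genes reported elsewhere to respond to PAR factors, to Nfil3 or to the TCF3-HLF fusion numbered 16, and 9 passed the filter. Over 7 libraries 0 of 9 were called for Evi1 HSC against WT HSC in limma, where 0.206% of all tested genes were. An unadjusted p under 0.05 in limma was reached by 2 of 9, against 1600 of 18943 of all, with a median of 0.25 beside 0.00 for all genes. For Evi1 HSC against WT KL 4 rose, 1 fell and 4 were not called, with a median of 0.88 beside 0.28, so 5 of 9 were called where 45.7% of all tested genes were, 31.9% higher and 13.9% lower. For WT HSC against WT KL 3 rose, 2 fell and 4 were not called, with a median of 0.27 beside 0.26, where 37.7% of all were called, 27.3% higher and 10.4% lower. Tox passed the filter only through the stem cell libraries, so it had to differ from WT KL. Without it 3 of 8 rose and 1 fell in Evi1 HSC, with a median of 0.57. In WT HSC 2 of 8 rose and 2 fell without it, with a median of 0.18. These counts are near those of all genes and are not a result about the list. For WT HSC against WT KL, without WT KL replicate 2 the number called was 3 in place of 5. Over 9 libraries 0 of 9 were called in limma in each comparison, with 0 to 1 at an unadjusted p under 0.05. Of all 19461 tested genes, 0.00514 to 0.0103% were called and 282 to 2956 had such a p.

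The members of that list that rose and fell differ in role. Tox, a nuclear factor of lymphoid development, was called higher in Evi1 HSC (limma adjusted p = 0.00090) and in WT HSC (0.0042), both against WT KL. Tox measured 14.4, 4.65 and 7.72 TPM in Evi1 HSC, 4.69 and 5.61 TPM in WT HSC and was listed at 0 in both WT KL libraries, so no fold is given. It passed the filter only through the stem cell libraries, so a difference was built into its being tested. Bcl2, the survival gene, rose by 1.79 in Evi1 HSC (limma adjusted p = 0.00053) and by 1.34 in WT HSC (0.0036), both against WT KL. Bcl2l11, which encodes the pro-apoptotic BIM, fell by 1.27 in Evi1 HSC (limma adjusted p = 0.0060) and by 1.09 in WT HSC (0.0198), both against WT KL.

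Lmo2, a cofactor of blood stem cells reported as a target of the fusion, rose by 1.13 in WT HSC against WT KL (limma adjusted p = 0.0052), at 419 and 443 TPM in WT HSC against 201 and 190 TPM in WT KL. Id2, an inhibitor of helix-loop-helix factors reported downstream of Nfil3 in lymphoid cells, rose by 2.09 in Evi1 HSC against WT KL (limma adjusted p = 0.0029). Alas1, the first enzyme of heme synthesis and a reported PAR factor target in liver, fell by 1.03 in WT HSC against WT KL (limma adjusted p = 0.0354). Its levels were 10.4, 14.3 and 10.7 TPM in Evi1 HSC, 11.2 and 8.30 TPM in WT HSC and 27.5 and 15.5 TPM in WT KL.

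**Figure D4:**
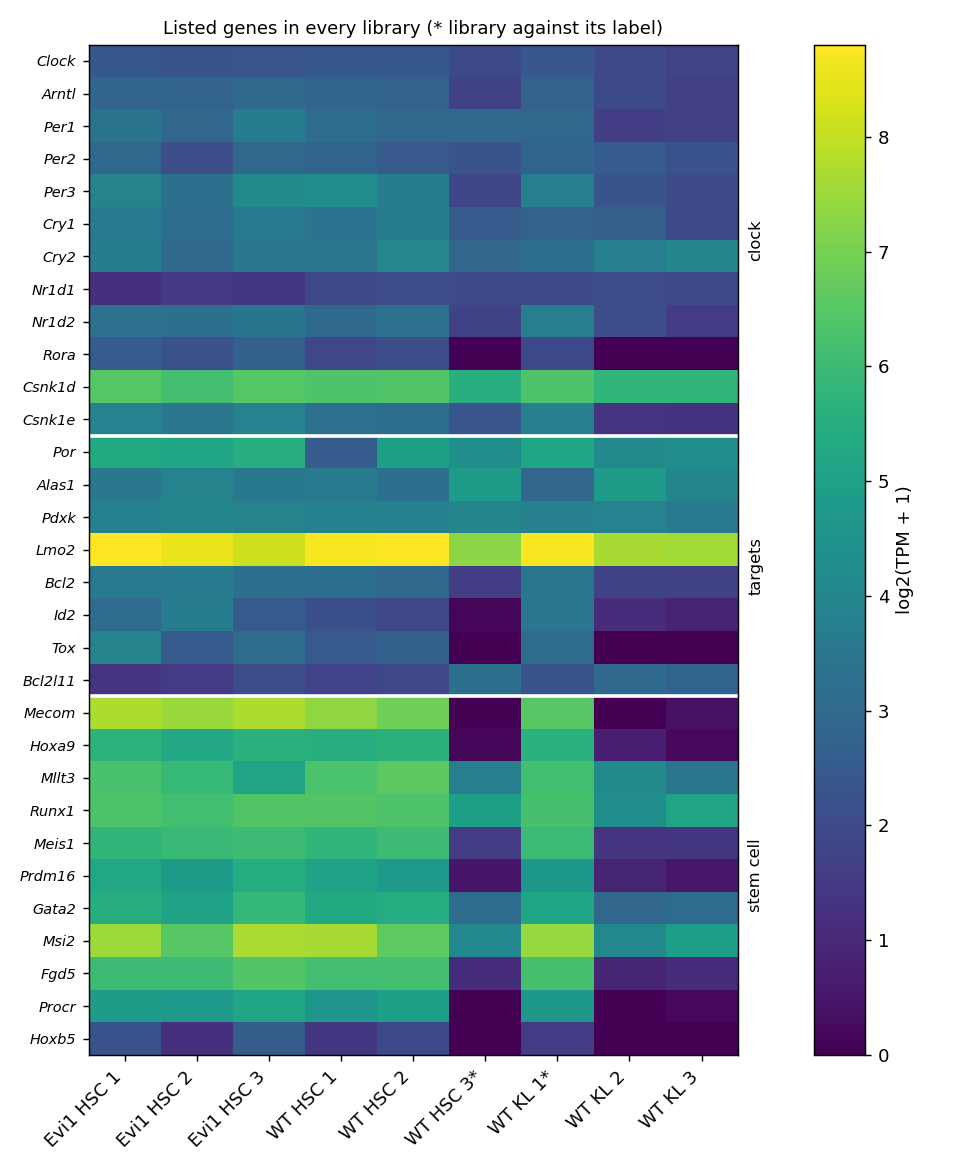
Log2(TPM + 1) of clock, reported target and stem cell genes in each library, ordered Evi1 HSC, WT HSC and WT KL, with a star on the 2 libraries that went against their labels. The sample labelled WT HSC replicate 3 shows Per3 at 2.61 TPM, near WT KL replicates 2 and 3 at 3.84 and 3.03 TPM, and the sample labelled WT KL replicate 1 shows 12.9 TPM.

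C/EBP factors are basic leucine zipper relatives that can bind the same element. Of 6 listed genes, 3 passed the filter over 7 libraries, with Ddit3 left out since 2 gene IDs bear that symbol. None was called in limma for Evi1 HSC against WT HSC, where 0 of 3 had an unadjusted p under 0.05, or for WT HSC against WT KL, where 1 had. Of all 18943 tested genes, 0.206% and 37.7% were called and 1600 and 9086 had such a p in these comparisons. For Evi1 HSC against WT KL 45.7% were called. With 3 genes, nothing is read from these counts. Cebpg rose by 0.63 in Evi1 HSC against WT KL (limma adjusted p = 0.0484), at 19.9, 12.8 and 14.5 TPM in Evi1 HSC against 8.73 and 10.7 TPM in WT KL. Cebpa, the myeloid regulator, did not pass the filter over 7 libraries. Its levels were 0.30, 0.17 and 0.44 TPM in Evi1 HSC, 0.28 and 0.25 TPM in WT HSC and 7.14 and 2.95 TPM in WT KL over those libraries, so the WT KL libraries were high where Hlf was low.

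Stem cell factors often described with Hlf numbered 12, of which 11 passed the filter. Of these, Mecom, Hoxa9, Prdm16, Procr and Hoxb5 were under 1 TPM in both WT KL libraries and passed only through the stem cell libraries, so they had to differ. The other 6 of the 11 all rose against WT KL over 7 libraries, with a median of 2.58 beside 0.28 for all genes in Evi1 HSC, where 31.9% of all rose, and of 2.62 beside 0.26 in WT HSC, where 27.3% rose. Over the same libraries 0 of 11 were called in limma for Evi1 HSC against WT HSC, where 0.206% of all tested genes were. An unadjusted p under 0.05 in limma was reached by 1 of 11, Mecom, against 1600 of 18943 of all. Over 9 libraries 0 of 11 were called in limma in each comparison, with 0 to 3 at an unadjusted p under 0.05. Of all 19461 tested genes, 0.00514 to 0.0103% were called and 282 to 2956 had such a p. The list holds Mecom, by which libraries were left out, so these counts are not independent of that choice. Against WT KL, the Mecom difference was 7.42 in Evi1 HSC and 6.88 in WT HSC. In Evi1 HSC the Mecom values may include RNA of the ROSA-Evi1 allele, which cannot be told apart here from RNA of the Mecom locus. Fgd5, a stem cell marker, rose by 5.17 in Evi1 HSC and 5.17 in WT HSC, and the Hoxa9 (a homeobox factor) difference was 5.08 in Evi1 HSC and 5.14 in WT HSC. The Hlf difference of 5.83 lay between those of Mecom and Fgd5. Tcf3, the gene whose human counterpart is joined to HLF in leukaemia, fell by 0.81 in Evi1 HSC against WT KL (limma adjusted p = 0.0090) and differed by -0.39 for Evi1 HSC against WT HSC (limma adjusted p = 0.613) and by -0.42 for WT HSC against WT KL (limma adjusted p = 0.128). Its levels were 24.6, 20.1 and 22.0 TPM in Evi1 HSC, 34.3 and 25.2 TPM in WT HSC and 42.7 and 36.9 TPM in WT KL over those libraries.

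Genes with either D-box word in a window were then described across the fits. Over 7 libraries 89 such genes were tested, among 9773 tested genes with a window. For Evi1 HSC against WT KL 31 rose and 10 fell, 34.8% and 11.2%, against 35.1% and 16.1% of all genes with a window. For WT HSC against WT KL 31 rose and 7 fell, 34.8% and 7.87%, against 30.3% and 12.2% of all. In Evi1 HSC set against WT HSC, limma called 0 of 89, where 0.06% of all genes with a window rose and 0.25% fell. An unadjusted p under 0.05 in limma was reached by 11 of the 89, against 870 of the 9773. The median log2 difference was -0.02, beside 0.00 for all with a window. The words differed from each other. For WT HSC against WT KL, 3 of 19 genes with TTACGTAA rose, 15.8%, with a median of -0.02, and 28 of 70 with TTATGTAA rose, 40%, with a median of 0.56, beside 30.3% and 0.28 for all with a window. For Evi1 HSC against WT KL, the shares that rose were 21.1% of the 19 and 38.6% of the 70, beside 35.1%. No test of these differences was made.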

How the data were processed

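The deposited values are TPM per gene, per the file headers, in a separate file for each library. TPM divides by gene length and by a library total, so a gene's value depends on all others. In the library of WT HSC replicate 2 the value column is headed C_H3 and was read as TPM from its sum and range. HISAT2, StringTie and mm10 are named per the submitters' processing notes; the sources used here do not give their roles or versions, the annotation or the use of strand. The listed genes took 56.9 to 63.8% of the TPM scale, and depth is unknown.

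Values were put on the log2(TPM + 1) scale and fitted in limma 3.58.1 (R 4.3.3), with 1 mean per group, a mean-dependent trend, and Benjamini-Hochberg adjustment over the genes that reached 1 TPM in 3 or more of the fitted libraries (19461 over 9 libraries, 18943 over 7). The fit was tested on simulated data with 3 libraries in each group and changes in Evi1 HSC alone. That setting does not cover WT groups of 2 libraries or libraries that go against their labels. Tables were handled with Python 3.11.15 and pandas 2.3.3. The members and gene lists were chosen with earlier results of these data known. The text names the 4 genes, the library checks Mecom, Ly6a and Mpo, the 5 genes most like Hlf and the 3 most like each other member. From each list it names, for the comparisons with WT KL, the 3 largest rises and falls among called genes whose higher group averaged 5 TPM or more; some genes that this rule took are left out of the text. All 136 list symbols matched, as did 55227 listed gene IDs (99.5%) in GENCODE M21. Alternatives were a pseudocount of 0.1, no filter, rescaled totals, the compared groups alone, a replicate block and leaving out each library.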

Additional observations from a re-analysis of the deposited data

How the results depend on the processing

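In the fits over 9 libraries, called genes numbered 0 (pseudocount of 0.1) and 3 (no filter) for Evi1 HSC against WT HSC, 2 (no filter) for WT HSC against WT KL, and 1 (pseudocount of 0.1), 6 (no filter) and 4 (rescaled) for Evi1 HSC against WT KL. Leaving out 1 library gave 0 to 3, 1 to 4 and 1 to 98 in these comparisons, the 98 without the sample labelled WT KL replicate 1. Evi1 HSC against WT HSC turned to -0.051 for Dbp and 0.052 for Nfil3 with a pseudocount of 0.1, and to -0.0040 and 0.0066 after rescaling. Leaving out 1 library moved Hlf between -0.0015 and 3.43 for Evi1 HSC against WT HSC. It moved Tef between -0.53 and 0.41 for Evi1 HSC against WT HSC, -0.30 and 0.65 for WT HSC against WT KL, and -0.27 and 0.43 for Evi1 HSC against WT KL. Dbp ranged between -0.44 and 0.57 for Evi1 HSC against WT HSC, and Nfil3 between -0.30 and 0.21, -0.042 and 0.47, and -0.042 and 0.36 in the same order of comparisons.

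In the fits over 7 libraries the Hlf rises against WT KL kept direction and call in all 13 alternatives. Dbp in WT HSC against WT KL lost its call with no filter (1.76, limma adjusted p = 0.120) and with the replicate block (1.86, limma adjusted p = 0.0861). Leaving out 1 library moved Hlf between -0.15 and 0.15, Tef between -1.08 and 0.021 and Dbp between -0.81 and 0.12 for Evi1 HSC against WT HSC. It moved Tef between -0.52 and 0.89 and Dbp between 0.94 and 1.87 for Evi1 HSC against WT KL, and Dbp between 1.69 and 1.82 for WT HSC against WT KL. Called genes ranged from 5 to 25, 5535 to 8493 and 4198 to 7097 for Evi1 HSC against WT HSC, Evi1 HSC against WT KL and WT HSC against WT KL, and for Evi1 HSC against WT HSC numbered 0 with the block and 6 with those groups alone. Removing a WT library left 1 in its group, which is assumed to vary like the others. Replicate numbers were not shown to pair libraries (r of deviations -0.636 to 0.704). The deviations were taken from group means that include the 2 libraries that went against their labels, so they cannot decide on pairing. The cause of these changes was not tested. The list counts under these settings and a filter on all 9 libraries, which left every call of the 4 genes the same, were chosen after seeing the data. Across all results of the 4 genes, 289 alternatives kept direction and call, 27 turned direction, 7 lost a call and 1 gained one. Unknown depth, 3 or fewer libraries a group and levels near 1 TPM limit Dbp and Nfil3 most.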
